A study of Mus musculus with 6 samples.

Results

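Glucocorticoid-responsive and metallothionein genes were followed in mouse lumbar spinal cord as a set of 10: Sgk1, Ddit4, Cdkn1a, Tsc22d3, Nfkbia, Dusp1, Fkbp5, Zbtb16, Mt1 and Mt2. Members were the probe sets that the platform annotation gives 1 of these symbols and no other. The 10 were among 18194 genes so named. There were 23 member probe sets among 45265 in all, 19 of 22690 on array type A, where each of the 10 genes had at least 1, and 4 of 22575 on array type B, which covered Nfkbia, Tsc22d3, Zbtb16 and Fkbp5. The study compared spinal cord of mice deficient in Egr3, a zinc-finger transcription factor induced by neuronal activity, with that of wild-type mice, and its title names fusimotor neurons. Pool 1 (RNA 450) and pool 2 (RNA 500) were labelled Egr3-deficient and a single pool (RNA 499) wild type. For each pool, total RNA of 3 cords (lumbar segments L3 to L5, from mice at postnatal day 27) was put on both array types, which makes 6 arrays. No source used here gives the allele, strain or sex. The label of pool 2 carries a remark on acclimatization, as does that of the wild-type pool, and the label of pool 1 carries none.

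Facts that touch every comparison were these. Median intensities ran between 50.3 and 60.1 on array type A and between 76.2 and 91.8 on array type B, with pool 1 lowest on both. Egr3 itself read 24.9 and 52.7 in pools 1 and 2 against 40.6 in wild type on A, and 210 and 107 against 75.3 on B, so it was not lower in both Egr3-deficient pools on either array type. No source used here places its probe sets within or outside the deletion, so this reading does not check the labels, and every direction below rests on them. Markers of neurons, oligodendrocytes and astrocytes, the cells of the labelled tissue, were bright in all 3 pools. Summed neuron markers on A stood at 0.761 and 0.823 of wild type in pools 1 and 2, oligodendrocyte markers at 0.637 and 0.784, and astrocyte markers at 0.924 and 0.945. On B, with other probe sets, the neuron sums stood at 1.06 and 1.13 of wild type. There the oligodendrocyte sums were 1.48 and 1.16 and the astrocyte sums 0.966 and 1.01. The sums thus gave no single direction across array types. Single markers, after normalization, were less even. Of 4 kept astrocyte markers on B, 3 were lower in each pool and 0 higher, while on A 4 of 11 were lower and 3 higher. The astrocyte markers Aqp4 and Slc1a2 were lower on B, by log2 differences of -1.84 and -1.18 (limma adjusted p = 0.0115 and 0.0403). Of the 3 kept oligodendrocyte markers on B, Ermn was lower by -1.72 (limma adjusted p = 0.00988). Opalin differed there by 0.50, above wild type in both pools, and Mobp by 0.069. On A, Aqp4 differed by -1.74 (limma adjusted p = 0.158), Slc1a2 by 0.050 and Mobp by -0.70. Skeletal muscle and liver markers stood apart, and red blood cell and choroid plexus markers did so in 1 pool more than in the other. All 14 kept muscle markers on A lay above wild type in both pools, with sums of 6114 and 7230 in pools 1 and 2 against 1122 in wild type. For liver, 10 of 11 kept markers did, and the sums over all 14 on the array, kept or not, were 708 and 13511 against 322. Red blood cell sums on A, over 3 markers of which 2 were kept, stood at 3.39 and 1.35 of wild type in pools 1 and 2. Choroid plexus sums stood at 1.42 and 12.1, mostly through Ttr, which is also on the liver list. For the 18S ribosomal RNA control on A, signal at the 3' end over that at the 5' end was 2.27 and 1.08 in pools 1 and 2 against 0.0493 in wild type. The same ratio lay closer together for the 2 mRNA controls on A. It was 0.858 and 0.975 against 0.734 for Gapdh, and 1.37 and 1.48 against 1.36 for actin. The part of these differences in the results below was not tested.

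Glucocorticoids released in stress and over the daily cycle enter cells and bind the glucocorticoid receptor, which moves to the nucleus and binds a palindromic element in the DNA. In brain and spinal cord the receptor is present in neurons and glia, and its targets include inhibitors of inflammation, of mTOR and MAP kinase signalling, and of the receptor itself. Metallothioneins are small cysteine-rich proteins that bind zinc and copper. They are induced by metals through the transcription factor Mtf1, and Mt1 and Mt2, abundant in astrocytes, are also induced by glucocorticoids.

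The bases ahead of the start sites are shown for the gene that passed the test, for 2 genes above wild type in both pools, and for the metallothionein pair. They are the 250 bases upstream of an annotated start, from RefSeq on GRCm38.p6, on the strand of the gene, and 9 of the 10 genes matched, Zbtb16 being the other. Capitals mark the motif named with each sequence. Where a gene had several starts, the window with most matches to that motif was shown. Both strands were searched, the element shared by a full match and its half-sites was counted under both, and a match is a description of letters, not a site in use.
Nfkbia, chr12:55492648-55492897, minus strand, NF-kappaB consensus: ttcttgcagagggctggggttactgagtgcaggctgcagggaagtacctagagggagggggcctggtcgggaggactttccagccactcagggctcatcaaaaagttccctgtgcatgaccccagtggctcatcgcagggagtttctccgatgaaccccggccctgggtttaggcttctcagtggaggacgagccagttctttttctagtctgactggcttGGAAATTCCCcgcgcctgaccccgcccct
Sgk1, chr10:21993640-21993889, plus strand, glucocorticoid response element: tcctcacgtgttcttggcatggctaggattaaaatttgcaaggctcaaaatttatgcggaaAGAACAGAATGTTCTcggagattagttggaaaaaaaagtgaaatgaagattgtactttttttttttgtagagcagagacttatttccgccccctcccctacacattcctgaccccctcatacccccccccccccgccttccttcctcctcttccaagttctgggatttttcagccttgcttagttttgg
Dusp1, chr17:26508473-26508722, minus strand, cAMP response element: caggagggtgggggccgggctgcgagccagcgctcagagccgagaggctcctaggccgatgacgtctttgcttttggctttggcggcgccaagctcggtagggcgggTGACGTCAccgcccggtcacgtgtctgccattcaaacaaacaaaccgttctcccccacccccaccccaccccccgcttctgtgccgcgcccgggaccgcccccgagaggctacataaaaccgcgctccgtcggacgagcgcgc
Mt1, chr8:94178839-94179088, plus strand, metal response element: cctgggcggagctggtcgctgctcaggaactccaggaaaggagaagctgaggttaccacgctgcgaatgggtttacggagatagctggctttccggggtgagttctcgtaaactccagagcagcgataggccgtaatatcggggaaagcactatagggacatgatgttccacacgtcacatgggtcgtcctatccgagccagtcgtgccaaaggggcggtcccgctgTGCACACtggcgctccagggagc
Mt2, chr8:94172368-94172617, plus strand, metal response element: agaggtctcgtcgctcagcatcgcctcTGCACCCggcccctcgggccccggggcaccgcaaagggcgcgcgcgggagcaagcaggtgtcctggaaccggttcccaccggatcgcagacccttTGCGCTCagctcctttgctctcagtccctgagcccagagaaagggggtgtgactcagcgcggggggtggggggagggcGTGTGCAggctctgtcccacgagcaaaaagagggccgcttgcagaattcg

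The full glucocorticoid element searched for was the half-site AGAACA, any 3 bases and the half-site TGTTCT. Among the members it stood in 1 of the 6 Sgk1 windows, 189 bases ahead of that start, and 3 of all 32851 windows (0.00913%) held it. The arrays do not tell which Sgk1 start was used. The half-site alone, in 16.1% of all windows, stood in 3 of the 6 Sgk1 windows and in 1 of the 3 Tsc22d3 windows. The NF-kappaB consensus began 29 bases ahead of the Nfkbia start and was found in 3.9% of all windows. For Dusp1 the cAMP response element TGACGTCA began at 143 bases ahead of the start, and 1.55% of windows held it. The metal response element, searched as TGCACNC or TGCGCNC, had 3 matches ahead of Mt2 and 1 ahead of Mt1, whose starts lie 6471 bases apart. It was also found ahead of Ddit4 and Nfkbia, and in 21.4% of all windows.

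The comparison asked whether the members stood higher or lower in each Egr3-deficient pool than in the wild-type pool. Nfkbia rose in both pools on array type B, and it was the one member probe set that passed the test. On array type A, Sgk1, Ddit4, Cdkn1a, Dusp1, Tsc22d3 and Nfkbia lay above wild type in both pools, by log2 differences of 0.48 to 0.91 in the brightest probe set of each, without passing. For Fkbp5, Zbtb16, Mt1 and Mt2 the same measure ran between -0.17 and 0.15. In bulk tissue, more RNA per cell and more cells of a type cannot be told apart.

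Differences were taken on log2(intensity + 16) after quantile normalization, so they understate those of dim genes, and were tested with limma over all probe sets kept by a filter at the 40th percentile of mean level, 13576 on A and 13507 on B. On A, 18 of the 19 member probe sets were kept and 0 passed an adjusted p of 0.05, where 0.0663% of all kept probe sets were higher and passed. At an unadjusted limma p under 0.05, 6 of the 18 were higher and 0 lower, beside 7.93% higher and 12.7% lower of all kept. Above wild type in both pools lay 13 of 18, beside 47.9% of all, and below it in both lay 3 of 18, beside 34.8%. At least 2-fold above wild type in both pools lay 0 of 18, beside 1.2% of all kept. The 18 include several probe sets each of Nfkbia and Tsc22d3, which are not independent. Members were chosen with earlier results of these data known, so the shares beside them describe and do not test the set. On B, 3 of 4 were kept and 1 was higher and passed, where 1.02% of all kept probe sets were higher and passed. This probe set was also the 1 at an unadjusted p under 0.05, with 7.4% of all higher and 6.83% lower. It was at least 2-fold higher in both pools, beside 4.27%. On B, 2 of 3 lay above wild type in both pools (38.9% of all) and 0 below it in both (36.6% of all).

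Taken by gene, with the brightest probe set of each, the median log2 difference on A was 0.55 over 10 members and 0.11 over all kept probe sets. Pool 1 alone gave 0.31 over the members and 0.16 over all, and pool 2 alone 0.73 and 0.061. In deposited intensity 17 of the 18 kept member probe sets on A read higher in pool 2 than in pool 1, beside 51.9% of all kept, and on B 1 of 3 did, beside 50.1%. The 2 pools share the wild-type pool as their only comparison, so their differences from it are not independent. On B the median was 0.17 over 3 members and 6.3e-05 over all.

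**Figure D1:**
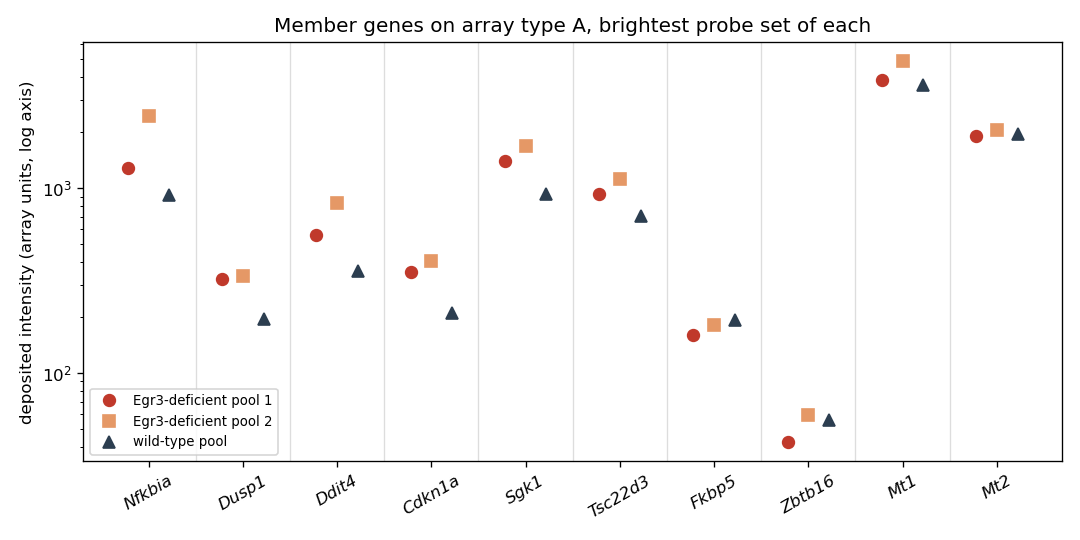
Deposited intensity in array units, on a log axis, of the brightest array type A probe set of each member in pool 1 and pool 2, labelled Egr3-deficient, and in the wild-type pool, 1 point per array. Pool 1 and pool 2 both lie above wild type for Nfkbia, Dusp1, Ddit4, Cdkn1a, Sgk1, Tsc22d3 and Mt1, and pool 2 reads above pool 1 for every gene shown.

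Sgk1, serum- and glucocorticoid-regulated kinase, acts on ion channels and transporters and is an early target of the receptor. Its probe set on A read 1406 and 1693 in pools 1 and 2 against 928 in wild type. Both Egr3-deficient pools lay above the wild-type pool. The log2 difference was 0.61 ± 0.25 (SE) and did not pass (limma adjusted p = 0.231). Ddit4, also called REDD1, restrains mTOR complex 1 in stress and low oxygen. It read 560 and 834 in pools 1 and 2 against 357 in wild type, so pool 2 stood 2.34-fold and pool 1 1.57-fold above wild type. The log2 difference of 0.91 ± 0.33 (SE) did not pass either (limma adjusted p = 0.199).

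Cdkn1a encodes the cyclin-dependent kinase inhibitor p21, a target of p53 as well as of the glucocorticoid receptor. Its brighter probe set read 351 and 402 in pools 1 and 2 against 212 in wild type, above it in both. Its log2 difference was 0.83 ± 0.30 (SE, limma adjusted p = 0.199). The other Cdkn1a probe set, below the filter, read 2.61 and 12.6 in pools 1 and 2 against 4.40 and gave no order.

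Among the members that damp inflammation, Tsc22d3 (GILZ), a leucine-zipper protein that binds and restrains NF-kappaB and AP-1, had 3 probe sets on A. The brightest read 930 and 1118 in pools 1 and 2 against 704 in wild type. All 3 lay above wild type in both pools, with log2 differences of 0.48, 0.55 and 0.60 and limma adjusted p values of 0.271 to 0.332. The Tsc22d3 probe set on B read 149 and 109 in pools 1 and 2 against 132, so that wild type lay between the pools (log2 difference 0.075, SE 0.49, limma adjusted p = 0.976). The array types thus did not give 1 pattern for this gene.

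Dusp1 (MKP-1) is a nuclear phosphatase that switches off the p38 and JNK MAP kinases. It read 324 and 335 in pools 1 and 2 against 195 in wild type, and the pools lay close together and above it. Its log2 difference was 0.77 ± 0.30 (SE, limma adjusted p = 0.217).

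Nfkbia encodes I-kappa-B alpha, which holds NF-kappaB in the cytoplasm and is itself an NF-kappaB target, as well as a receptor target in lymphoid cells. The probe set on B read 2690 and 2674 in pools 1 and 2 against 771 in wild type, 3.49-fold and 3.47-fold higher. After normalization the log2 difference was 1.39 in pool 1 and 1.68 in pool 2, and the fit gave 1.53 ± 0.35 (SE, 2.90-fold, limma adjusted p = 0.0138). The adjusted p was 0.0233 when the adjustment ran over both array types. The call held in 5 of 10 fits, with adjusted p between 0.0027 and 0.455 and the log2 difference between 1.20 and 1.95. It was lost under 3 other scalings, with no filter and without the intensity trend.

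On A, 4 probe sets for Nfkbia read the same RNA pools. The brightest read 1285 and 2457 in pools 1 and 2 against 913 in wild type, with log2 differences of 0.32 and 1.29, so pool 2 stood well apart from pool 1. The next read 291 and 297 against 158, and a further one 257 and 259 against 152, with both pools close together and above wild type. The fitted log2 differences of these 3 were 0.80, 0.90 and 0.77 (limma adjusted p = 0.27, 0.189 and 0.224). The dimmest read 72.1 and 95.0 against 77.1, with wild type between the pools in intensity and a log2 difference of 0.19 (limma adjusted p = 0.754). The 5 probe sets therefore differed in size, and the one on B and the second brightest on A are of a kind, marked s_at, that can match more than 1 transcript.

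**Figure D2:**
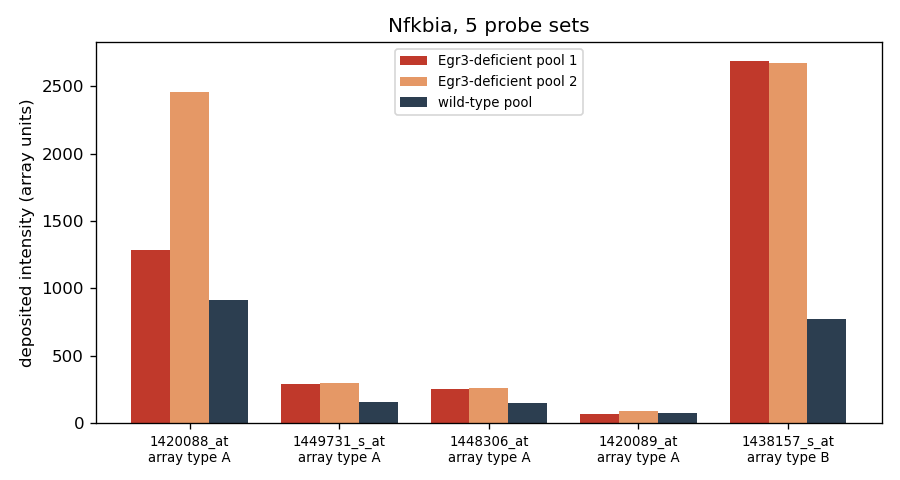
Deposited intensity in array units of the 5 Nfkbia probe sets, 4 on array type A and 1 on array type B, with a bar from 0 for pool 1 and pool 2, labelled Egr3-deficient, and for the wild-type pool, 1 array each and no error bars. On array type B the bars of pools 1 and 2 stand at 2690 and 2674 and the wild-type bar at 771, while on the dimmest probe set of A wild type lies between the pools.

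Fkbp5, a co-chaperone that lowers the hormone affinity of the receptor in a feedback loop, showed no such difference. Its brighter probe set on A read 160 and 182 in pools 1 and 2 against 194 in wild type, slightly lower in both pools (log2 difference -0.095, SE 0.32, limma adjusted p = 0.88). Another read 52.3 and 92.1 against 86.4, with wild type between the pools. The probe set on B was below the filter, at 2.14 and 44.5 in pools 1 and 2 against 1.32.

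Zbtb16 (PLZF), a zinc-finger repressor strongly induced by glucocorticoids in many human cells, was dim on A. Its brighter probe set there read 42.2 and 59.6 in pools 1 and 2 against 55.4, with wild type between them, and the other read 48.8 and 34.1 against 32.1. On B it read 740 and 852 in pools 1 and 2 against 626 in wild type (log2 difference 0.17 ± 0.41 SE, limma adjusted p = 0.922). After normalization pool 1 differed from wild type there by 0.021 and pool 2 by 0.31.

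Mt1 and Mt2 were bright in all 3 pools and lay close to wild type. Mt1, also on a probe set marked s_at, read 3823 and 4836 in pools 1 and 2 against 3604 in wild type, with log2 differences of 0.028 and 0.27. The fit gave 0.15, SE 0.18 (limma adjusted p = 0.651). A dim Mt1 probe set lay below wild type in both pools (log2 difference -0.18, limma adjusted p = 0.771), so the probe sets of this gene disagreed in sign. Mt2 read 1916 and 2055 in pools 1 and 2 against 1961 in wild type, with wild type between them in intensity. After normalization both pools lay below wild type, by -0.27 and -0.078. Its log2 difference was -0.17, SE 0.21 (limma adjusted p = 0.647), and the sign turned under 3 other scalings. Whether Mt1 and Mt2 differed less than Sgk1 or Dusp1 did was not tested.

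**Figure D3:**
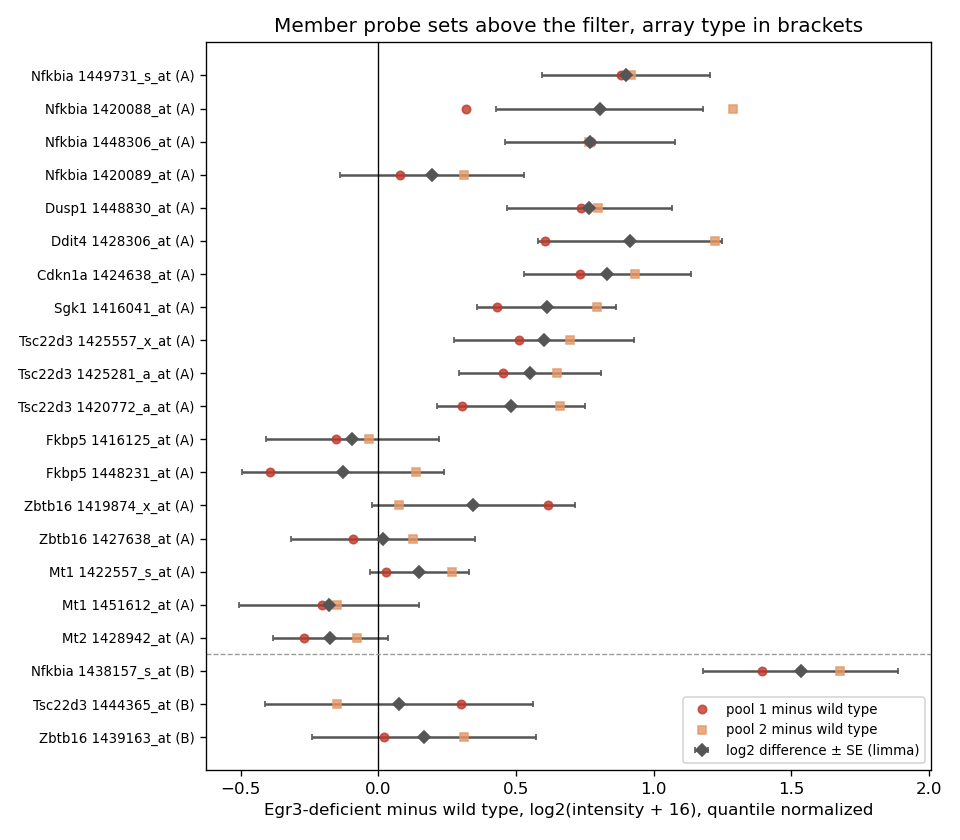
Difference from the wild-type pool on the log2(intensity + 16) scale, after quantile normalization, for the 21 member probe sets above the filter, array type in brackets. Circles and squares show pools 1 and 2, diamonds and bars the limma log2 difference ± SE, and Nfkbia on array type B, at 1.53, lies farthest from 0.

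The other genes of these pathways came from 7 lists of 137 genes in all, with the members left out and the brightest probe set taken for each gene. On A 94 list genes were kept and 0 passed an adjusted limma p of 0.05, and at an unadjusted p under 0.05 11 were higher and 7 lower, beside 7.93% and 12.7% of all kept probe sets. In both pools 50 lay above wild type and 27 below, beside 47.9% and 34.8% of all, with a median log2 difference of 0.20 beside 0.11. On B 31 were kept and 0 passed, with 2 higher and 0 lower at an unadjusted p under 0.05, and 17 lay above and 7 below wild type in both pools, beside 38.9% and 36.6% of all. The genes named below lay on 1 side of wild type in both pools, except where stated.

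Of the receptor and hormone activation genes, 7 were kept on A, 3 above and 4 below wild type in both pools, with a median of -0.40 beside 0.11 for all kept probe sets. Hsp90aa1, the chaperone that keeps the receptor able to bind hormone, read 1158 and 1971 in pools 1 and 2 against 3857 in wild type (log2 difference -1.46, limma adjusted p = 0.161), but another of its probe sets, on B, differed by 0.61. Hsp90b1, its relative in the endoplasmic reticulum, read 285 and 341 against 586 (-0.89, limma adjusted p = 0.185). Fkbp4, a co-chaperone that promotes transport of the receptor to the nucleus, read 442 and 328 against 231 (0.71, limma adjusted p = 0.256). Ncoa2, a coactivator of nuclear receptors, differed by -0.70 on B. The receptor gene itself, Nr3c1, read 122 and 251 in pools 1 and 2 against 338 in wild type on B (-0.86, limma adjusted p = 0.407). Its probe set on A, chosen with its values in view, read 97.8 and 183 against 248, so both lay below wild type in both pools.

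Of the other glucocorticoid-induced genes, 24 of 28 were kept on A. In both pools 17 lay above wild type and 3 below, and at an unadjusted limma p under 0.05 7 were higher and 2 lower. Of all kept probe sets, 47.9% lay above and 34.8% below in both pools, and 7.93% were higher and 12.7% lower at that p. The list's median log2 difference was 0.45, beside 0.11 over all. Lcn2, lipocalin 2, an iron-carrier protein of reactive astrocytes and of the acute phase, read 210 and 132 in pools 1 and 2 against 38.3 in wild type (1.84, limma adjusted p = 0.161). Cebpd, a transcription factor of the acute phase, read 149 in both pools against 48.1 (1.47), and the related Cebpb read 96.0 and 117 against 38.8 (1.26). Klf9, a target of the receptor in neurons and chosen here with its values in view, lay on the other side, at 387 and 897 in pools 1 and 2 against 1461 in wild type (-1.38, limma adjusted p = 0.181). On B, Mfsd2a, a lipid transporter, differed by 0.57. Arrdc2, an arrestin-domain gene, differed there by 0.70, with 0.18 in pool 1 and 1.22 in pool 2. Tsc22d1, a relative of Tsc22d3, differed by -0.47 on B. On A, Tsc22d1 read 3044 and 2645 in pools 1 and 2 against 2657, with wild type between the pools (-0.064).

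Of the metallothionein, zinc and metal response genes, 14 were kept on A, 5 above and 5 below wild type in both pools, with a median of -0.028 beside 0.11 for all kept. Mt3, the metallothionein of brain, read 1806 and 1387 in pools 1 and 2 against 805 in wild type (0.87, SE 0.24, limma adjusted p = 0.162). Gclc, the catalytic subunit of the enzyme that starts glutathione synthesis, read 116 and 217 against 330 (-0.94). Its partner subunit Gclm differed by -0.87 on B but by only -0.087 on A. The zinc transporter genes Slc39a1 on A, Slc39a10 on B and Slc30a10 on B differed by 0.30, -0.76 and 0.49. Mtf1, which binds metal response elements and was chosen with its values in view, read 65.0 and 102 against 94.6 on A, with wild type between the pools, and 277 and 317 against 345 on B.

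Of the p53 and cell cycle inhibitor genes around Cdkn1a, 15 were kept on A, 7 above and 6 below wild type in both pools, with a median of 0.13 beside 0.11 for all kept. Ccng1, a p53 target that encodes cyclin G1, read 56.1 and 155 in pools 1 and 2 against 294 in wild type (-1.42, limma adjusted p = 0.188), while Phlda3, a p53 target that inhibits AKT, read 770 and 656 against 446 (0.64). Gadd45g, a growth arrest and DNA damage gene, read 145 and 116 against 75.7 (0.77). Targets of p53 lay on both sides of wild type.

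Of the NF-kappaB pathway, 6 genes were kept on A, 1 above and 3 below wild type in both pools, and 4 on B, 2 above and 0 below. Rela, the p65 subunit, read 276 and 264 in pools 1 and 2 against 164 in wild type on A (0.72, limma adjusted p = 0.24), and was the 1 gene above. Below were Nfkb2, the p100 and p52 subunit, at 48.5 and 32.5 against 74.8 (-0.59), and Vcam1, an adhesion molecule induced by NF-kappaB, at 104 and 106 against 136 (-0.25). Tnfaip3 (A20), an NF-kappaB target that shuts the pathway off, read 235 and 169 against 109 on B (0.92, limma adjusted p = 0.361). Nfkbib, a further inhibitor of NF-kappaB, differed by 0.84 on B. On A, Nfkbib was among the 3 below, at 175 and 181 in pools 1 and 2 against 191 in wild type (-0.022), so its probe sets disagreed in sign. Among the phosphatases related to Dusp1, 9 were kept on A, 5 above and 2 below. Dusp26 and Dusp2 differed there by 0.52 and 0.66 and Dusp16 by -0.75. On B 3 were kept, and the 2 above wild type were Dusp8, at 1364 and 958 in pools 1 and 2 against 435 in wild type (1.23, limma adjusted p = 0.1), and Dusp4, at 189 and 86.8 against 24.6 (1.99, limma adjusted p = 0.105).

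Around Sgk1 and Ddit4, 19 genes of the SGK, mTOR and integrated stress response list were kept on A, 12 above and 4 below wild type in both pools, with a median of 0.24 beside 0.11 for all kept. Sgk3, a kinase related to Sgk1, read 39.8 and 52.2 in pools 1 and 2 against 147 in wild type (-1.31, limma adjusted p = 0.161), on the other side from Sgk1. Eif4ebp1, a repressor of translation held in check by mTOR complex 1, read 66.4 and 53.7 against 26.9 (0.91, limma adjusted p = 0.211), and Egln3, an oxygen-sensing prolyl hydroxylase, differed by 0.73. On B, Rptor, a subunit of mTOR complex 1, Ddit4l, a relative of Ddit4, and Sesn1, a stress-induced inhibitor of mTOR complex 1, differed by 0.42, 0.45 and 0.86.

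**Figure D4:**
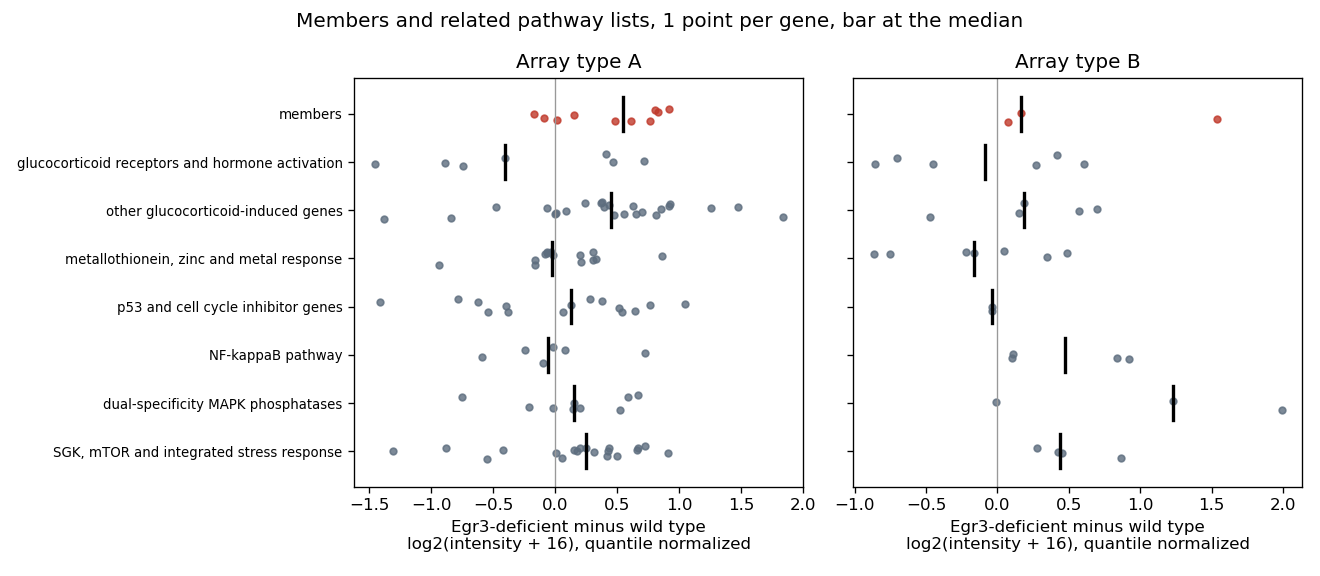
Log2 difference, Egr3-deficient minus wild type on the log2(intensity + 16) scale, of the members and of the genes of 7 related lists, 1 point per gene at its brightest kept probe set, with a bar at the median, on array types A and B. On A the members have a median of 0.55 and the other glucocorticoid-induced genes 0.45, while the receptor and hormone activation genes have -0.40.

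Likeness to a member was measured as the distance between the pairs of log2 differences from wild type, over 3 pools, so it rests on 2 numbers per probe set. Nearest to Dusp1 on A were 0610012G03Rik, Ahdc1 and Cmtr1, at distances of 0.0048, 0.0097 and 0.013, and 96 probe sets lay within 0.1 of it. Nearest to Cdkn1a were Gpank1, Evpl and Klhdc3, at 0.018 to 0.022, with 51 within 0.1. Ddit4 had 1 such neighbour, Dpt, at 0.077. On B, Nfkbia had 2, with Kyat1 nearest at 0.030, and Zbtb16 had 89, with Rpap2, Zscan10 and Kank4 nearest.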

How the data were processed

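Linear intensities, 1 per probe set and array, are what the authors deposited. On every array the mean without the top and bottom 2% came to about 150.0, so the values had been scaled. The summarising program and detection calls are not given in the labels or files. Symbols came from the platform annotation, updated through RefSeq (GRCm38.p6), and a probe set given several symbols was left unnamed.

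The 3 arrays of an array type were analysed together and apart from the other type, with limma 3.58.1 in R 4.3.3. Values entered as log2(intensity + 16), were quantile normalized, and were kept at or above the 40th percentile of mean log2 value (an intensity near 36.7 on A and 55.9 on B). The fit used eBayes with an intensity trend and Benjamini-Hochberg adjustment, with a threshold of 0.05. A run on simulated data checked that changes of known size came back near that size on average. The simulation gave all 3 arrays the same spread and held no tissue differences between pools, so it does not check the calls made here. Groups followed the labels, 2 pools against 1, which leaves 1 residual degree of freedom. Wild type has no replicate and is assumed to vary as much as the others do. The p-values measure only the spread between these pools and a prior across probe sets, worth 6.54 degrees of freedom for A and 52.3 for B. Precision is limited by the number of arrays.

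Members and lists were chosen with earlier results of these data known. All members were named. From each of the 7 pathway lists came the genes past the threshold, then up to 3 per array type with the largest smaller-of-2 difference of 1 sign in both pools. Of the 9 marker lists, sums and counts were used, and Aqp4, Slc1a2, Ermn, Opalin, Mobp and Ttr were named with their values in view. Alternatives changed the scaling (3 ways), the pseudocount (1 and 64), the filter (none, or at the 60th percentile), the prior (no trend, or robust), the adjustment (both array types together), the summary of a gene (all its probe sets averaged) and the pools (each Egr3-deficient pool left out).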

Additional observations from a re-analysis of the deposited data

How the results depend on the processing

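On array type A, 0 member probe sets and 0 listed pathway genes passed under every alternative but median centring. That gave 1 member probe set, the brightest of Nfkbia (log2 difference 1.07, limma adjusted p = 0.0463), and 6 pathway genes, and called 227 probe sets higher and 597 lower in all, against the reported 9 and 0. On array type B the count of member calls was 1, and 0 with no quantile normalization, median centring, scaling on the 100 probe sets shared by both array types, no filter, or eBayes without trend. The median log2 difference on A was 0.55 and kept its sign in all alternatives run, with 0.31 to 0.73 when 1 pool was left out. On B it was 0.17, and 0.33 with no quantile normalization, 0.50 with median centring, -0.24 with shared scaling, 0.16 with a pseudocount of 64, 0.56 with no filter, and 0.30 to 0.31 with 1 pool left out. Shared scaling put the median of all B probe sets at -0.66, so relative to it no member lay lower. Of 183 alternative values of member probe sets with both pools in the fit, 8 turned sign, in 4 probe sets. Mt2 (-0.17) came to 0.017, 0.14 and 0.018 with no quantile normalization, median centring and shared scaling. Zbtb16 on A (0.016) came to -0.11 with no quantile normalization and with shared scaling. On B, Tsc22d3 (0.075) came to -0.044 and -0.62 under the same 2 settings, and Zbtb16 (0.17) to -0.24 with shared scaling. With 1 pool left out, 3 of 42 values turned sign, in Fkbp5 (0.14) and Zbtb16 (-0.093) on A and Tsc22d3 (-0.15) on B. The causes were not tested. Calls over all B probe sets also moved, with 138 higher and 82 lower against 2 and 0 with no quantile normalization and 0 and 0 with shared scaling, no filter or no trend. No paired analysis was possible because the labels pair no pool with the single wild-type pool. With 1 wild-type pool and 2 Egr3-deficient pools, dim probe sets such as that of Fkbp5 on B and the dimmer one of Cdkn1a gave no usable difference.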
